A study of Rattus norvegicus with 4 samples.

Results

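The Sox, Klf and Fox genes encode 3 families of transcription factors, and their transcript levels were compared between an eye library and a retina library. The rats were wild-type animals of the Long Evans strain, which is pigmented. Members were all genes whose symbol is Sox or Klf followed by a number, or Fox followed by a single letter and a number, leaving out the 3 genes Sox9, Foxe3 and Foxc1. This gave 48 genes, of which 13 were Sox, 16 Klf and 19 Fox genes, among the 14485 gene names with values. Each tissue had 2 technical replicates in the labels and RNA pooled from 5 rats, but the values analysed here come as 1 column for each tissue, and whether it joins both replicates is unknown. The groups thus shared strain and genotype and differed in the tissue label, although the description field speaks of retina mRNA in all 4 samples. Age, sex and treatment of the animals are not stated in these labels. Values are taken as RPKM, that is, reads divided by gene length and library total, a unit inferred from the numbers. With a single column per tissue there is no replicate spread and no p-value, so every difference below is between these 2 libraries.

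Sox proteins bind the minor groove of DNA through an HMG box and bend it, and they are grouped by letters (SoxB to SoxG here) by the similarity of that box. They are known as regulators of progenitor and lineage identity, in retinal progenitors and Mueller glia (Sox2), in neural crest glia and melanocytes (Sox10) and in endothelium (the SoxF group). Krueppel-like factors (Klf) bind GC boxes and CACCC boxes through zinc fingers at their C-terminal end. Some activate and others repress by recruiting CtBP or Sin3A, and Klf4 and Klf5 are known regulators of surface epithelia such as the cornea. Forkhead (Fox) proteins bind DNA through a winged-helix domain. The FoxO proteins among them are held in the cytoplasm by Akt signalling.

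The bases just before the annotated starts of 3 members are shown because these genes had the largest differences toward each library among the called members with a RefSeq promoter entry lying outside their own gene span. Klf5 and Sox15 were far higher in the eye library and Klf1 was higher in the retina library. The sequences come from RefSeq (rat assembly GRCr8, which is not the rn4 build of the values), cover 250 bases upstream of the start, and are written 5′ to 3′ on the strand of the gene. Capitals mark CACCC or its reverse complement GGGTG, and GGGCGG or its reverse complement CCGCCC, the boxes that Klf and Sp proteins bind.
Klf5 upstream region (GRCr8 chr15:82471831-82472080, plus strand): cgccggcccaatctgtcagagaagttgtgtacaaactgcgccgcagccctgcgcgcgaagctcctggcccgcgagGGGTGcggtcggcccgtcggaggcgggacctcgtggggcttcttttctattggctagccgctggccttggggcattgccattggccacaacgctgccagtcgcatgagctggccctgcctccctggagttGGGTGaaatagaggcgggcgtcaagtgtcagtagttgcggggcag
Sox15 upstream region (GRCr8 chr10:54871543-54871792, plus strand): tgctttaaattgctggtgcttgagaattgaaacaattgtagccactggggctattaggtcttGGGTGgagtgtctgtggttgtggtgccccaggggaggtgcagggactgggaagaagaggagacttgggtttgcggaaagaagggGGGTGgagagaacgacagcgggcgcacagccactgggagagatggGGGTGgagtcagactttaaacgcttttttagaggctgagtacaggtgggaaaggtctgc
Klf1 upstream region (GRCr8 chr19:40158652-40158901, minus strand): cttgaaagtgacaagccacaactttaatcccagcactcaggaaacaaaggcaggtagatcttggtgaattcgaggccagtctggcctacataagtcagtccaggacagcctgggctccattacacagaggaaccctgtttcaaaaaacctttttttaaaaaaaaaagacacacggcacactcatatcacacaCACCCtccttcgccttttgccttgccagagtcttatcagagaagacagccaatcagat
The Klf5 region held 2 CACCC boxes, the Sox15 region 3 and the Klf1 region 1, and none of the 3 held GGGCGG on either strand. The GC content was 65.2% in the Klf5 region, 54.0% in the Sox15 region and 45.6% in the Klf1 region.

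RefSeq promoter entries were matched for 31 of the 48 members, 6 Sox, 11 Klf and 14 Fox genes. In the 250 upstream bases the median GC content was 66.4% for the members and 52.0% for all 27457 promoters in the table. GGGCGG, on either strand, was in 17 of the 31 (54.8%) and in 32.4% of all promoters, and CACCC in 18 (58.1%) and in 49.4%. Sites of both kinds may share bases where they adjoin, and both words are rich in G and C, as the member promoters were. Of the words bound by the other families, the Sox words ACAAAG and AACAAT were in 6 and 3 of the 31 (16.0% and 10.3% of all promoters), and the forkhead word GTAAACA in 2 (3.25%). TATAAA was in 3 of the 31 and in 13.1% of all. These are matches of letters on both strands and not measured binding.

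Totals of 28071917 reads for eye and 51944762 for retina were inferred from the values themselves. For retina, 25972381 was allowed by more single values (866 against 820 of 983). The larger total was taken because the smallest lengths then equalled the gene span in the RefSeq table for 127 of 1816 genes, against 68. Of 13980 genes searched, 13760 (98.4%) gave whole reads in both libraries, among them all 47 members with a value above 0. The reads found are the smallest that could be fitted with these totals. The exact 95% intervals of a fold given below (Clopper-Pearson) depend on that choice and cover counting error only, with no allowance for PCR duplicates. Where the true reads are a multiple of those found, the intervals are too wide. Rod and cone markers were present in both libraries, with 10 of 14 lower in eye, and the corneal keratin gene Krt12 had values of 2318 (eye) and 0.955 (retina). Summed over lists, markers of corneal and conjunctival epithelium, muscle, connective tissue, lens, melanin synthesis, myelin and endothelium were all higher in the eye library. In such whole-tissue RNA, fewer cells of a type and less RNA per cell cannot be told apart.

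Most Sox, Klf and Fox transcripts were at low to middle levels, and the difference ran mainly toward the eye library. Member values ranged from 0 to 32.0 in eye (median 4.71) and from 0 to 40.1 in retina (median 3.50), against medians of 8.75 and 8.11 over all genes. Only 8 of the 48 had a mean value of at least 10. A gene was tested if either value reached 1, and called if log2((eye + 0.1) / (retina + 0.1)) was at least 1 in size, which is a 2-fold difference. Of the 48 members, 43 were tested. Of these, 12 were higher in eye (27.9%, against 17.8% of all 13259 tested genes) and 2 were lower (4.65%, against 7.95%). The higher genes were Klf2, Klf3, Klf4, Klf5, Klf6, Klf10, Sox7, Sox10, Sox15, Sox17, Sox18 and Foxp2, and the lower ones Klf1 and Sox12. The members tested had a median log2 fold of 0.39, and all tested genes one of -0.01. Of the tested members, 6 passed the minimum in the eye library alone and 2 in the retina library alone, against 1207 and 265 of all 13259 tested genes. The minimum fixed the direction of such genes, though not the size of their difference, so the counts are descriptive.

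**Figure D1:**
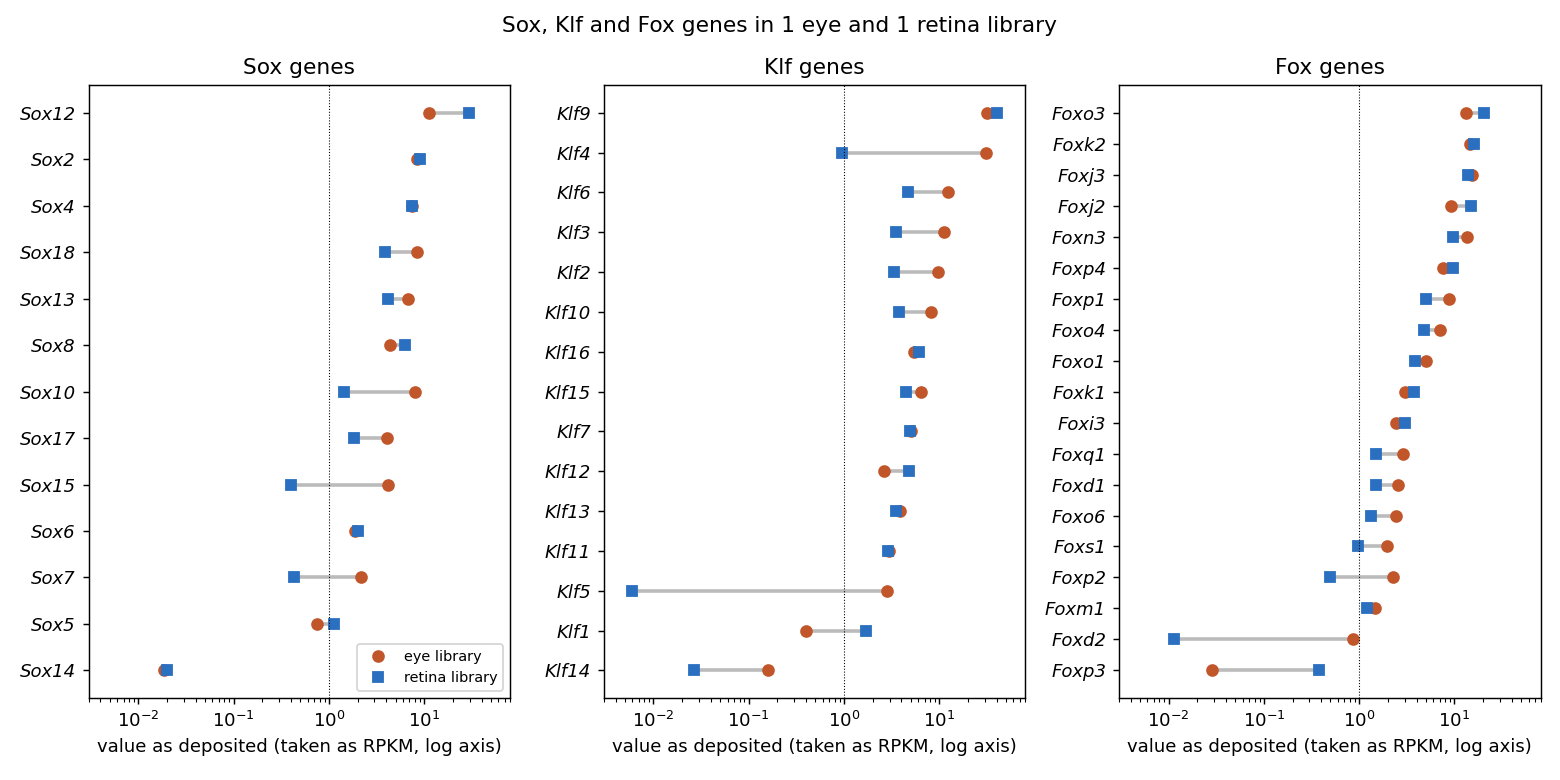
Value of each Sox, Klf and Fox gene (as deposited, taken as RPKM, log axis) in the eye library (circles) and the retina library (squares), joined by a grey line; the dotted line marks the minimum of 1, and Klf17, listed at 0 in both libraries, is not drawn. Klf4 (30.9 and 0.943) and Klf5 (2.82 and 0.00596) have the longest lines among tested genes, and most Fox genes have short ones.

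The split moved with some scalings of the libraries and not with others. With both libraries set to equal summed values, which moves the eye values by -0.64 on the log2 scale, 7 members were higher (11.5% of all tested genes) and 7 lower (31.9% of all). The higher share of the called members was then 50.0%, against 85.7% as deposited. Among all tested genes, 1519 were then higher and 4232 lower, against 2366 and 1054 as deposited. The 14 lens markers made up 34.8% of the summed eye values and 0.568% of the summed retina values. When the totals excluded lens genes, a shift of 0.19, 14 were higher (21.2% of all) and 2 lower (4.23%). Scaling by the trimmed mean of log ratios, a shift of -0.004, left 12 higher (17.8% of all) and 2 lower (8.08%). The median of ratios, a shift of 0.007, also left 12 higher (18.0% of all) and 2 lower (7.79%). The 7 members higher under each of the scalings tried were Klf3, Klf4, Klf5, Sox7, Sox10, Sox15 and Foxp2, and both lower members were lower under each. Of these, Klf4, Klf5, Sox7, Sox15 and Foxp2 passed the minimum in the eye library alone, and Klf1 in the retina library alone. The minimum thus fixed the direction of these genes as deposited, and their stability is descriptive. Set against all tested genes, the members' median lay 0.41 higher as deposited, a difference that a scaling can hardly move.

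The families differed in how many members were called. Among the tested Sox genes 5 of 12 were higher (41.7%) and 1 lower (8.33%). Among the Klf genes 6 of 14 were higher (42.9%) and 1 lower (7.14%), and among the Fox genes 1 of 17 was higher (5.88%) and 0 lower. Of all tested genes, 17.8% were higher and 7.95% lower. The median log2 folds were close to each other, at 0.36 for Sox, 0.32 for Klf and 0.39 for Fox genes. Summed values were 68.0 in eye and 67.2 in retina for Sox genes, 134 and 84.8 for Klf genes, and 114 and 113 for Fox genes. Whether the families differ was not tested.

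**Figure D2:**
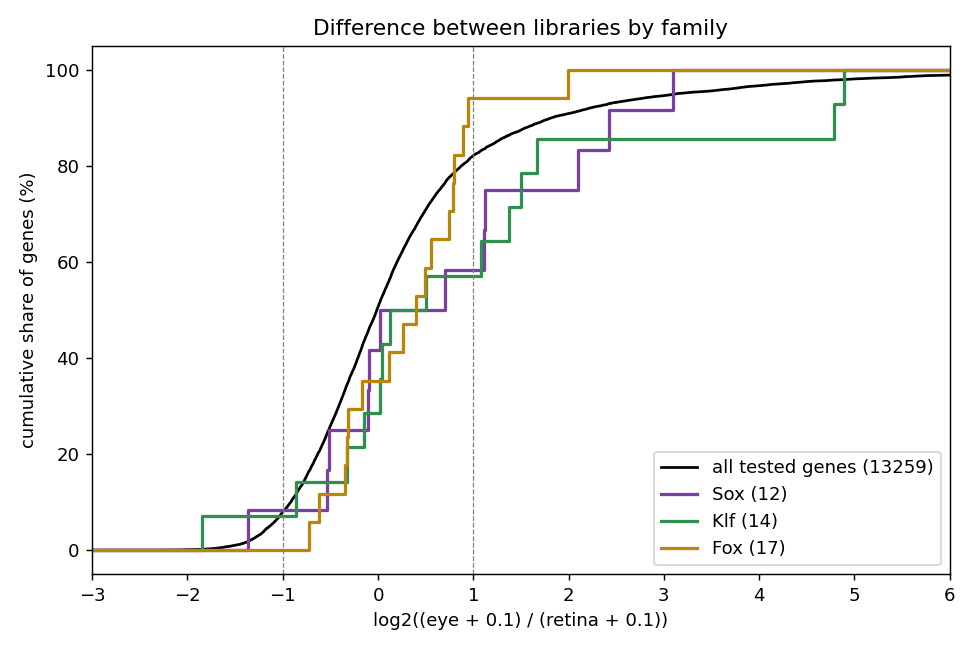
Cumulative share (%) of tested genes against log2((eye + 0.1) / (retina + 0.1)), for all 13259 tested genes (black) and for 12 Sox, 14 Klf and 17 Fox genes; dashed lines mark 2-fold. The Sox and Klf lines reach further right than the Fox line, of which 1 gene, Foxp2, lies past the right dashed line.

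The SoxF genes, regulators of endothelial and lymphatic identity, were all 3 higher in eye. Sox18 was at 8.47 in eye and 3.85 in retina, a 2.20-fold difference (interval 1.89 to 2.56). Sox17 was at 4.07 and 1.81, 2.25-fold higher (1.87 to 2.70). Sox7 was at 2.19 and 0.434, 5.05-fold higher (3.43 to 7.57). Their summed value was 14.7 in eye and 6.10 in retina. Sox17 and Sox18 lay close to the threshold and were not called with equal summed values or with 1 added. Endothelial markers were also higher, in 7 of 10 tested, with a summed value of 156 in eye and 67.4 in retina and none at 0, and their part in the SoxF difference was not tested.

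Sox10, the SoxE factor of Schwann cells, oligodendrocytes and melanocytes, was at 8.09 in eye and 1.43 in retina, 5.66-fold higher in eye (4.86 to 6.61). Its group partner Sox8 had the opposite sign, at 4.37 in eye and 6.31 in retina, 1.44-fold higher in retina (1.29 to 1.62) and not called. Markers of Schwann cells and myelin were higher in eye in 9 of 10 tested, with sums of 449 and 78.1, and those of melanin synthesis in 8 of 8, with sums of 1009 and 91.7. None of these markers was at 0 in either library, and their part in the Sox10 difference was not tested.

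Sox15, the SoxG member, which is known from muscle progenitors, was at 4.19 in eye and 0.403 in retina. That is a 10.4-fold difference (6.07 to 19.0), the largest of the Sox genes. The retina value rested on as few as 16 reads.

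Sox12 and Sox4 are SoxC factors of neuronal differentiation, and they differed from each other. Sox12 had the highest Sox value, at 29.2 in retina and 11.2 in eye, 2.60-fold higher in retina (2.30 to 2.94). In retina it stood above 82.5% of all genes, and in eye above 57.3%. Sox4 was at 7.46 in eye and 7.38 in retina, a ratio of 1.01 (0.831 to 1.23). Zcchc3, the next gene after Sox12 in the RefSeq order, was also lower in eye, at 12.7 against 30.03. Whether Sox12 and Zcchc3 share reads is not known, since no source used here states the use of strand in counting.

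Sox2, the SoxB1 factor of retinal progenitors and Mueller glia, was nearly equal in the libraries, at 8.48 in eye and 9.06 in retina. The ratio of 1.07 toward retina (0.963 to 1.19) includes 1, and its sign changed when the totals excluded lens genes. Sox14, a SoxB2 factor of interneurons, was near 0, at 0.0184 and 0.0199, resting on as few as 1 and 2 reads. Of the SoxD genes, which lack an activation domain of their own, Sox13 was at 6.82 in eye and 4.14 in retina, 1.65-fold higher (1.48 to 1.83). Sox5 was at 0.755 and 1.13, and Sox6 at 1.87 and 2.03. None of the 3 SoxD genes was called, and the intervals of Sox5 (0.993 to 2.33 toward retina) and Sox6 (0.375 to 3.51) include 1. The Sox6 interval rests on 6 and 12 reads at a fitted length of 114 bases. These are the smallest reads that fit, so its width may overstate the counting error.

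Klf4 and Klf5, zinc finger factors of surface epithelia, had the largest differences of all tested members. Klf4 was at 30.9 in eye and 0.943 in retina, 32.7-fold higher in eye (27.1 to 39.8). It stood above 83.9% of all genes in eye and above 16.3% in retina. Klf5 was at 2.82 in eye and 0.00596 in retina, where it rested on as few as 1 read against 256 in eye, a ratio of 474 (84.3 to 18783). The Klf5 interval lies wholly above that of Klf4. On the scale with 0.1 added their log2 folds were 4.89 and 4.79, since the added value shrinks the ratio of a gene near 0. Markers of corneal and conjunctival epithelium were higher in 12 of 14 tested, with summed values of 5446 in eye and 161 in retina and none at 0, and their part in these differences was not tested.

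Klf2, Klf6 and Klf10, all of which are known as rapidly induced genes, were higher in eye by smaller amounts. Klf2, an endothelial factor that responds to blood flow, had values of 9.61 (eye) and 3.34 (retina), 2.88-fold higher (2.07 to 4.04). Klf6 was at 12.4 and 4.73, 2.62-fold higher (2.31 to 2.96). Klf10, a TGF-beta response gene, was at 8.15 and 3.81, 2.14-fold higher (1.75 to 2.60). Klf10 had the smallest called fold toward eye, with a log2 fold of 1.08 against 0.95 for Foxs1, the nearest gene that was not called. With equal summed values none of Klf2, Klf6 and Klf10 was called.

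Klf3 and Klf12 bind the corepressor CtBP, and they lay on opposite sides. Klf3 was at 11.3 in eye and 3.47 in retina, 3.25-fold higher in eye (2.89 to 3.66). Klf12 was at 2.61 and 4.81, 1.84-fold higher in retina (1.57 to 2.18). With a log2 fold of -0.86, Klf12 was the gene just short of a call toward retina, after Sox12 at -1.37. Klf5 is the neighbour of Klf12 in the RefSeq order, so these neighbouring relatives also had opposite signs.

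Klf1, the erythroid factor that activates beta-globin, was at 0.400 in eye and 1.70 in retina, 4.26-fold higher in retina (2.56 to 7.53). Both levels were low, with as few as 17 reads in eye and 134 in retina, and with 1 added Klf1 was not called. Gcdh, which follows Klf1 in the RefSeq order, was at 22.5 in eye and 25.2 in retina.

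Klf9, a glucocorticoid and thyroid hormone response gene, was the most abundant member in both libraries. It was at 32.0 in eye and 40.1 in retina, 1.25-fold higher in retina (1.19 to 1.32), and stood above 84.6% and 88.2% of all genes. Klf15, a metabolic regulator, was at 6.39 in eye and 4.47 in retina, a 1.43-fold difference (1.15 to 1.79) that changed sign with equal summed values. Klf7, a factor of neuronal outgrowth, was at 5.05 and 4.92. Its ratio of 1.03 (0.914 to 1.15) includes 1, as do those of Klf11 (2.93 in eye and 2.88 in retina), Klf13 (3.85 and 3.52) and Klf16 (5.49 and 6.10). The signs of these 4 changed with a scaling, that of Klf16 when the totals excluded lens genes and the others with equal summed values. Klf14 was below the minimum, at 0.158 in eye and 0.0263 in retina, resting on as few as 13 and 4 reads. Klf17 is listed at 0 in both libraries.

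**Figure D3:**
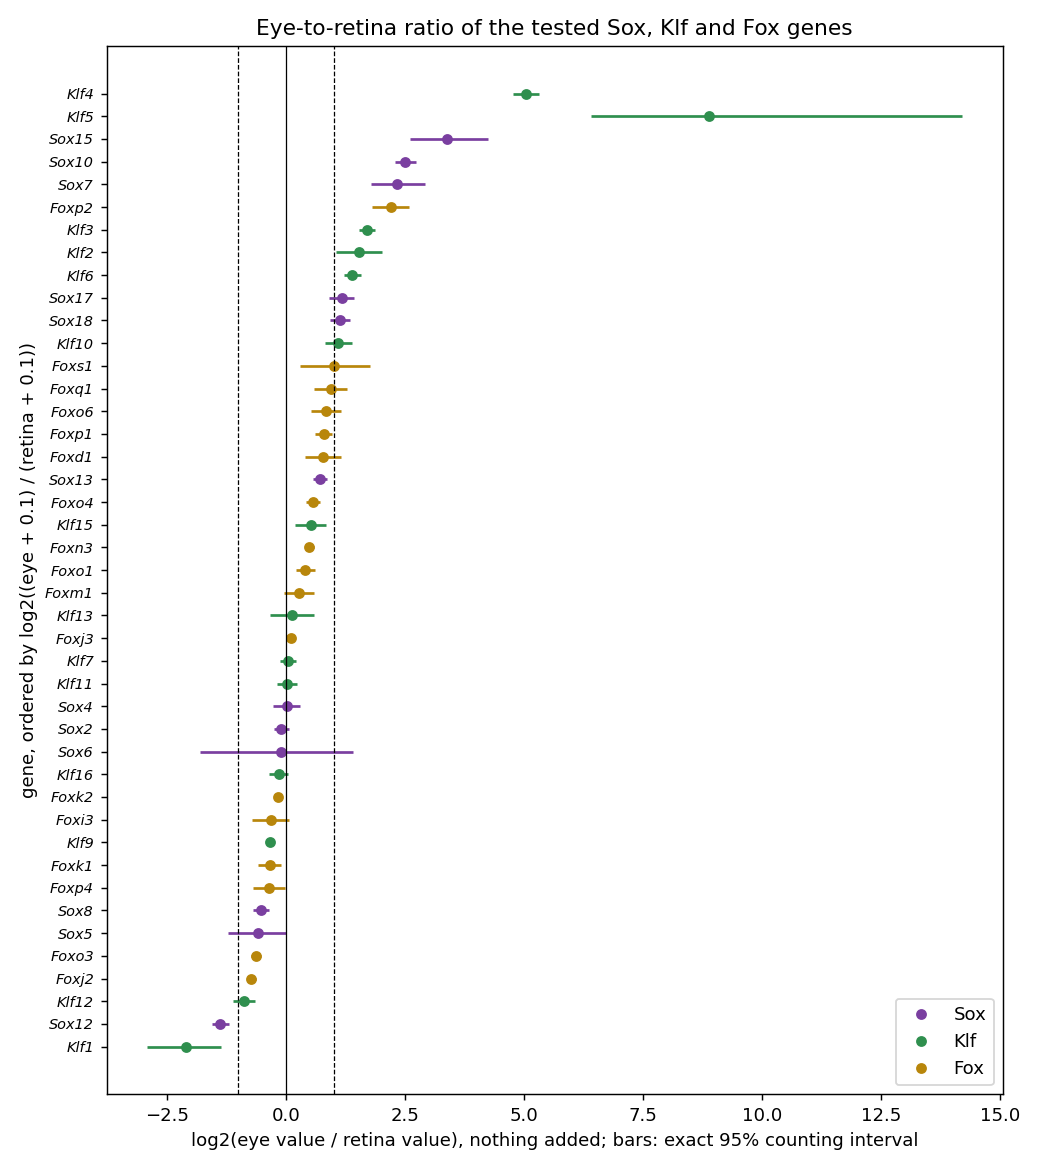
log2 of the eye value over the retina value for the 43 tested members, with nothing added (points) and exact 95% counting intervals (bars), coloured by family; the solid line marks equality and the dashed lines 2-fold. The whole interval of 9 members lies above 2-fold and that of 2 members, Klf1 and Sox12, below it on the retina side.

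By reads alone, small differences were resolved in many members. The counting interval lay above 1 for 23 of the 43 tested members (41.1% of 12795 tested genes with reads) and below 1 for 10 (42.3%), and it included 1 for the other 10. The whole interval lay beyond 2-fold toward eye for 9 members (14.9%) and toward retina for 2 (4.38%). The called genes whose intervals reached below 2-fold were Klf10, Sox17 and Sox18.

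Among the Fox genes, Foxp2 was the sole called member. Foxp2, known from motor and vocal circuits, was at 2.29 in eye and 0.4995 in retina, 4.58-fold higher in eye (3.50 to 6.04). Its neighbour Ppp1r3a, which encodes a glycogen-targeting subunit of muscle protein phosphatase, was at 1.38 and 0.00256. Skeletal muscle markers were higher in 10 of 10 tested, with summed values of 3150 in eye and 13.3 in retina and none at 0, and their part in the Foxp2 value was not tested. Foxp1 was at 8.79 in eye and 5.07 in retina, 1.73-fold higher (1.53 to 1.97). Foxp4 was at 7.55 and 9.63, 1.27-fold higher in retina (1.01 to 1.62). Foxp3, the factor of regulatory T cells, was below the minimum, at 0.0286 in eye and 0.377 in retina, resting on as few as 3 and 73 reads. Its direction, 13.2-fold toward retina (4.33 to 65.2), was opposite to that of immune cell markers, of which 6 of 9 tested were higher in eye. Ccdc22, the neighbour of Foxp3, had values of 5.89 (eye) and 11.5 (retina), and whether the genes share reads is not known.

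The FoxO genes, which switch on stress resistance and atrophy genes when insulin signalling is low, were not called. Foxo3 was the most abundant Fox gene by mean value, at 13.1 in eye and 20.3 in retina, 1.55-fold higher in retina (1.44 to 1.66). The other members had higher values in eye. Foxo4 was at 7.13 and 4.81, 1.48-fold apart (1.33 to 1.65), and Foxo1 at 5.05 and 3.82, 1.32-fold apart (1.15 to 1.52), and both changed sign with equal summed values. Foxo6 was at 2.41 and 1.34, 1.798-fold higher in eye (1.45 to 2.23). The intervals of all 4 exclude 1, and their sum was 27.7 in eye and 30.3 in retina, since they went both ways.

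None of the broadly expressed Foxj, Foxk and Foxn genes was called, with ratios from 1.08 for Foxj3 to 1.65 for Foxj2. Foxj3 was at 15.2 in eye and 14.0 in retina, a ratio of 1.08 (1.02 to 1.15) that changed sign with equal summed values. Foxk2, which binds metabolic and autophagy genes, was at 14.4 and 16.2, 1.12-fold higher in retina (1.06 to 1.19), and changed sign when the totals excluded lens genes. Foxk1, its close relative, was at 2.99 and 3.79. Foxn3, a repressor of cell cycle genes, was at 13.4 and 9.55, 1.41-fold higher in eye (1.31 to 1.51), and it changed sign with equal summed values. Foxj2 was at 9.13 and 15.1, 1.65-fold higher in retina (1.55 to 1.76), and was among the 5 members that were called lower with equal summed values in addition to Klf1 and Sox12. The other 4 were Foxo3, Klf12, Sox5 and Sox8.

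Several Fox genes of low level leaned toward eye without a call. Foxq1 was at 2.91 in eye and 1.52 in retina, 1.92-fold apart (1.51 to 2.44). Foxs1, a factor of pericytes and neural crest derivatives, was at 1.96 and 0.970, 2.02-fold apart (1.22 to 3.38), and fell short of the threshold through the added 0.1. Foxd1, known from the temporal retina and from stroma, was at 2.58 and 1.505, 1.72-fold apart (1.32 to 2.23). Foxq1 and Foxs1 were called higher when the totals excluded lens genes. Foxi3 was at 2.45 in eye and 3.06 in retina with an interval that included 1. Foxm1, the cell cycle factor, was at 1.46 and 1.20, a ratio of 1.21 (0.972 to 1.51). Foxd2 was below the minimum, at 0.864 in eye and 0.0114 in retina, where it rested on as few as 1 read, a ratio of 75.9 (12.9 to 3069).

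Relatives, partners and genes held to be targets of these factors were followed in 14 lists, read against 17.8% of all tested genes higher and 7.95% lower. A listed gene that passed the minimum in a single library had its direction fixed by that minimum, so the list counts are descriptive. The lists of Klf4, Klf5, Sox10 and SoxF targets were mostly higher in eye. Those factors were also higher, but Klf4, Klf5 and Sox7 passed the minimum in the eye library alone, so the likeness is descriptive. Of 14 tested surface epithelial targets of Klf4 and Klf5, 14 were higher, with a median log2 fold of 8.26. Only Aldh3a1, Tkt, Jup and Cdh1 of these also reached the minimum in retina. Krt12 and the corneal aldehyde dehydrogenase Aldh3a1 (1896 in eye and 2.22 in retina) had the highest values, and 11 of the 17 listed genes are also in the marker lists. Of 11 Sox10 targets, 10 were higher, with a median of 3.29. They were led by the melanin enzyme Dct (342 and 34.8) and the calcium-binding protein S100b (83.9 and 29.98), and 9 of 14 listed genes are also markers. Of 12 endothelial targets of SoxF and Klf2, 8 were higher, with a median of 1.46. The tight junction gene Cldn5 (34.6 and 30.5) was not called and the adhesion gene Vcam1 (22.8 and 8.33) was, and 6 of 13 listed genes are also markers.

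The DNA-binding relatives of the families were mostly not called. Of 6 tested Sp factors, which share the zinc fingers of Klf proteins, 0 were higher and 1 was lower, with a median log2 fold of -0.34. The lower gene was Sp7, a bone factor, at 0.373 in eye and 1.29 in retina, and Sp4 and Sp2 were at 12.9 and 8.25 in eye and 20.5 and 14.8 in retina. Of 18 other HMG-box proteins, 1 was higher and 0 lower, with a median of 0.11. That gene was Hmgb2, a chromatin protein of dividing cells, at 1.89 and 0.685. The most abundant were Ssrp1 (39.5 in eye and 47.9 in retina) and Ubtf (32.3 and 43.4).

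The lists of Sox2 partners, of Sox4 and Sox11 targets and of Sox5 and Sox6 targets had medians lower in eye. Most of their genes were not called. Of 12 Sox2 partners and neural progenitor genes, 1 was higher and 3 were lower, with a median log2 fold of -0.82. The retinal homeobox gene Rax had values of 49.3 (eye) and 120 (retina), the Notch effector Hes5 at 7.58 and 19.3, and Pou3f1 at 0.586 and 1.34. Nes (nestin) was the higher gene, at 1.54 and 0.570, while the eye development factor Pax6 (96.7 and 111) was not called. Of 8 neuronal targets of Sox4 and Sox11, 1 was lower, Map2 at 12.5 and 25.5, and 0 were higher, with a median of -0.45. Sox11 itself has no value under that symbol and is not among the members. Tubb3 (52.8 and 104) and Stmn2 (46.7 and 72.0) were not called. Of 8 cartilage targets of Sox5 and Sox6, Col2a1 (14.2 and 31.6) and Col11a2 (7.91 and 16.7) were lower and Matn3 (9.02 and 1.77) was higher. The median log2 fold of these 8 was -0.68. Col9a1 had the highest value of that list, at 46.5 and 77.4, followed by Col9a3 at 24.4 and 37.7.

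Few of the upstream regulators of FoxO were called. Of 20 upstream regulators 1 was higher, Pik3r1, a regulatory subunit of PI3 kinase, at 11.8 in eye and 4.42 in retina, and 0 were lower. Ywhaz (315 and 250) and Ywhab (133 and 136), the 14-3-3 proteins that bind phosphorylated FoxO, were not called. Of 16 FoxO targets 4 were higher, against 17.8% of all tested genes, and 0 lower. These were Pdk4 (3.27 and 0.284), a brake on glucose oxidation, Trim63 (6.51 and 1.40), a muscle ubiquitin ligase, Cdkn1a (8.11 and 2.55) and Tnfsf10 (2.72 and 0.846). Pdk4 and Tnfsf10 passed the minimum in the eye library alone. The autophagy gene Gabarapl1 (164 and 201) and Sod2 (47.2 and 30.7) were the most abundant and were not called.

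Of 8 tested cell cycle targets of Foxm1, 6 were higher and 0 lower, with a median log2 fold of 1.98, while Foxm1 itself was not called. Of the higher genes, Aurkb, Cenpa, Top2a, Bub1 and Cdk1 passed the minimum in the eye library alone. The minimum thus fixed their direction, and the count and median are descriptive. Cdk1 had values of 5.37 (eye) and 0.989 (retina), and Cdc25b, which was not called, at 4.73 and 3.09. All of these levels were low. Of 14 anterior segment transcription factors, 9 were higher and 0 lower, with a median of 2.35. Among these 9, only Pitx3 and Maf also reached the minimum in retina, and the minimum fixed the direction of the others. Maf was at 42.2 and 7.06, while Tfap2b, listed under an older symbol, was at 19.0 and 31.5 and was not called. Of 15 listed motile cilium genes, 9 had values and 4 were tested. They are targets of the related factor Foxj1, which has no value under that symbol. Among the 4 tested, 1 was higher, Hydin at 2.69 and 0.406, and Ccdc39 was at 2.51 and 2.999. Of 8 listed lymphoid genes, 5 had values and 3 were tested. Among these 3, 1 was higher, Cd3g at 1.15 and 0.0624, while Cd4 (5.60 and 3.25) and Ikzf2 (3.20 and 2.97) were not called. Hydin and Cd3g passed the minimum in the eye library alone.

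**Figure D4:**
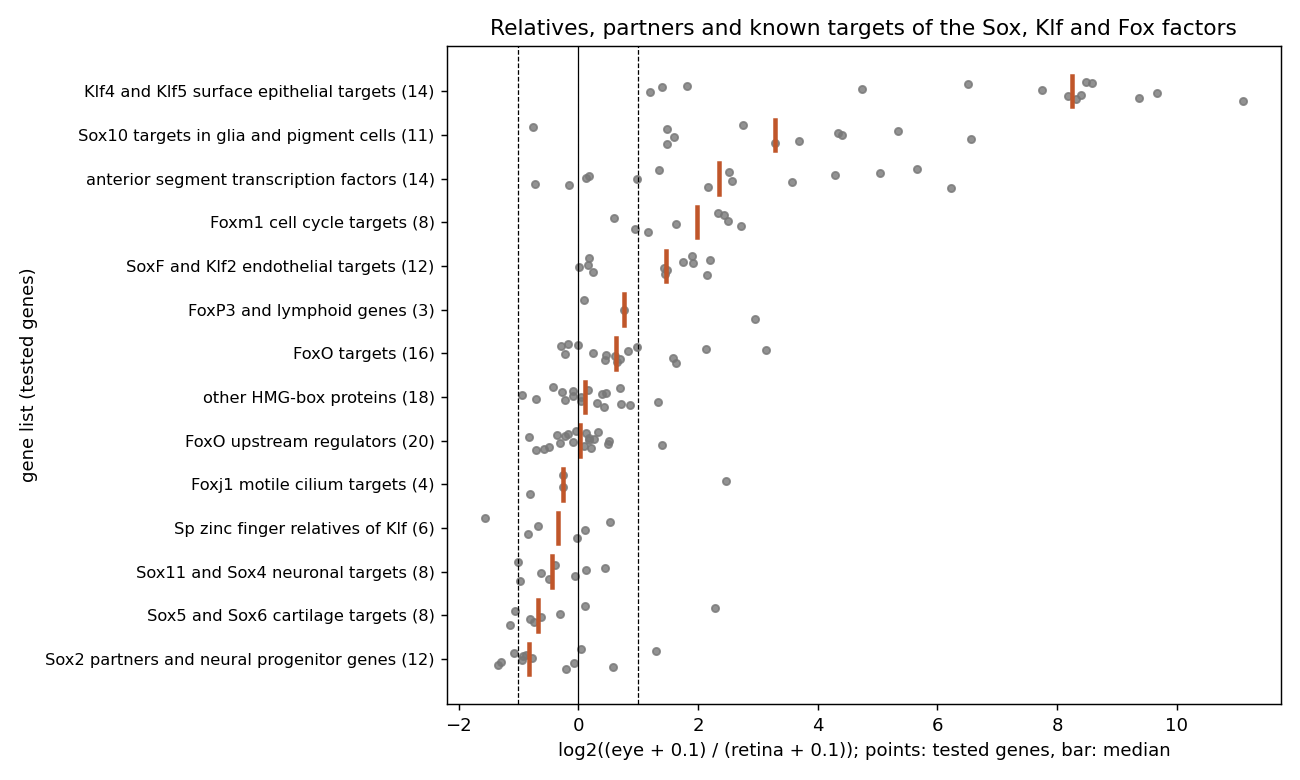
log2((eye + 0.1) / (retina + 0.1)) of the tested genes (grey points) of 14 lists of relatives, partners and targets, with the median of each list (bar) and the number tested in parentheses; dashed lines mark 2-fold. The Klf4 and Klf5 targets (median 8.26) and the Sox10 targets (3.29) lie farthest toward eye, and the Sox2 partners (-0.82) farthest toward retina.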

How the data were processed

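RNA of 5 rats was pooled per tissue, per the labels' protocols. GSNAP, HTSeq and the genome build rn4 are named in the submitters' processing notes; versions, settings, annotation and strand use are not stated in any source used here. The deposited values are taken as RPKM, a unit inferred from the values. Of 14533 rows, 7 held ND and were dropped, none of them a member. For 41 names on several rows the row with more decimals was kept.

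Library totals and whole reads were found by searching for the totals and smallest lengths that make the values whole reads within their printed rounding (Python 3.11.15, scipy 1.17.1). Calls follow log2((eye + 0.1) / (retina + 0.1)), a minimum of 1 and a fold of 2 over the whole table. Adding 0.1 understates the change of low genes, and other folds are ratios without it. The procedure was run on simulated data, where the reads found were compared only up to a factor shared by both libraries. The outcome is not reported here, and such a comparison cannot check the absolute reads that set the interval widths. Scalings, added values, minimums and folds were varied. The members and gene lists were chosen with earlier results of these data known. List genes were written from general knowledge, 2 being found under older symbols. Every called member, the 5 most abundant of each family, those at 0 and those next to the threshold were named, and in each list the 2 most abundant genes and, where at most 5 were called, those. A gene that this rule took is not reported here. Which genes neighbour each other was taken from RefSeq's GRCr8 table.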

Additional observations from a re-analysis of the deposited data

How the results depend on the processing

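Against 12 members higher and 2 lower as reported, a minimum of 5 gave 7 higher and 1 lower of 25 tested, a fold of 4 gave 5 and 0, and equal summed values gave 7 and 7. With 1 added 9 members were higher and 1 was lower, against 14.4% and 4.94% of all tested genes. At a fold of 1.5, 18 members were higher and 5 lower. These follow from how each alternative is built, with fewer genes tested, another threshold, a shifted ratio or smaller low folds. At a fold of 4, 9.07% of all tested genes were higher and 0.0905% lower, at a fold of 1.5 26.6% and 21.9%, and with a minimum of 5 14.7% and 8.19%. The added values, other scalings, the missing minimum and the removal of names with few decimals otherwise left both counts within 1.5 times. The members' median relative to all tested genes stayed between 0.33 and 0.46. A scaling moves all ratios alike, so it turned the sign of members whose difference was smaller than the shift, 10 with equal summed values and 4 when the totals excluded lens genes. The requirement that the whole counting interval lie beyond 2-fold, chosen after seeing the data, gave 9 and 2. No paired analysis was possible because each tissue is represented by 1 column, and no replicate could be left out. Depth limits Klf5, Foxd2 and Sox14 most, each with as few as 1 read in a library.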
